A study of Mus musculus with 12 samples.

Results

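The WNT genes described here are the secreted WNT ligands, their Frizzled and LRP receptors, the secreted antagonists of the SFRP, DKK and WIF type, and the first proteins that relay the signal inside the cell. They were chosen by symbol: every array gene named Wnt, Fzd, Dvl, Sfrp or Dkk with a number, together with Frzb, Wif1, Lrp5, Lrp6, Axin1, Axin2, Ctnnb1, Lef1 and Rspo1. The rule found 49 genes among 30119 genes and transcripts on the array, with 60 probes, and 36 of them could be tested. By role they are 20 ligands (Rspo1 counted with them), 12 receptors, 10 secreted antagonists and 7 relay proteins.

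The RNA came from ovaries of 12 female C57BL/6J mice aged 2 months, an inbred laboratory strain, in 3 diet groups of 4 animals that the series design calls biological replicates. Control mice (C1 to C4) ate a normal diet, early-life mice (E1 to E4) lacked vitamin D in the diet only during early life, and peripubertal mice (P1 to P4) lacked it only in the peripubertal stage. Whole minced ovaries were used. Each of 6 Agilent 2-colour arrays carried 2 animals of 1 group, the odd number in the green dye Cy3 and the even number in the red dye Cy5. All peripubertal arrays were on a slide of their own (slide 2), and the 4 arrays of the other groups shared slide 1. An effect of the slide and one of the peripubertal diet therefore cannot be told apart. Values are log2 intensities after normalization, differences are in log2 units with the standard error of the model, and a gene was called when the limma p-value, adjusted over all 18559 genes and transcripts tested, was under 0.05.

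The names control and early life are those of the scanner files. The deposited value table names these arrays the other way round: its 4 control columns match early-life channels and its 4 early-life columns match control channels. Which naming is right is unsettled, and so is the sign of all differences between early-life and control ovaries. With the arrays exchanged, peripubertal versus control becomes peripubertal versus early life. A statement that peripubertal ovaries lay apart from both other groups is untouched by the exchange. The median probe signal was 6.85 to 9.49 times its background, 59.3% to 65.5% of probes were well above background, and none of the spots was saturated. All listed markers of granulosa cells (8), luteal cells (6) and oocytes (9) were above background in at least 4 samples. Of 13 markers of oviduct epithelium, 10 were so too.

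WNT proteins bind a Frizzled receptor together with Lrp5 or Lrp6, and this draws Dishevelled (Dvl) and Axin to the membrane. The complex that destroys beta-catenin is then switched off, and beta-catenin enters the nucleus and acts with Lef1 and its relatives on target genes. SFRP and WIF proteins trap the ligand, some DKK proteins block the LRP receptors, and R-spondins keep Frizzled receptors on the surface. In the ovary, Wnt4 and Rspo1 are known for turning the early gonad to the female fate, and Fzd1, Fzd4 and Sfrp4 for their place in ovulation and in the corpus luteum. Vitamin D acts through a nuclear receptor that binds short DNA half-sites, best in pairs spaced by 3 bases.

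Results below turn on the Dishevelled genes, so the sequence that reads Dvl3 on the array is shown first. The only Dvl3 probe lies on chromosome 16 of build mm9, chr16:20531470-20531529, plus strand. Exon and UTR are not given, as an mm9 annotation was not used here.

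Dvl3 probe: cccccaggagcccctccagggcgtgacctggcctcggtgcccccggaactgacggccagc

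Its GC content of 76.7% is unusual, since 0.0593% of the probes of all genes tested have as much, against a median of 43.3%. The 250 bases before the start of each Dishevelled gene follow, from RefSeq on build GRCm38.p6, to show which of them hold a vitamin D receptor half-site. Capitals mark a match, on either strand, to the half-site AGGTCA, its variant GGTTCA, its variant AGTTCA or its variant GGGTCA. Dvl1 lies at chr4:155847152-155847401, Dvl2 at chr11:70000342-70000591 and Dvl3 at chr16:20516736-20516985, all on the plus strand.

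Dvl1: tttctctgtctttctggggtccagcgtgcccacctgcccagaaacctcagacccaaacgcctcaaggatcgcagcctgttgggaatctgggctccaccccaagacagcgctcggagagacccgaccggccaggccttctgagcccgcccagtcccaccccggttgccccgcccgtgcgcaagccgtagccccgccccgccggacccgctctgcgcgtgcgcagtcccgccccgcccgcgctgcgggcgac
Dvl2: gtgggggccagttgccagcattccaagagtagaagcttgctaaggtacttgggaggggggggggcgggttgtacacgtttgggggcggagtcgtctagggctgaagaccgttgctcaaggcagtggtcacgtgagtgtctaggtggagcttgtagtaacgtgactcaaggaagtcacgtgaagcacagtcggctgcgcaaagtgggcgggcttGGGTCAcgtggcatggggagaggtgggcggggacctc
Dvl3: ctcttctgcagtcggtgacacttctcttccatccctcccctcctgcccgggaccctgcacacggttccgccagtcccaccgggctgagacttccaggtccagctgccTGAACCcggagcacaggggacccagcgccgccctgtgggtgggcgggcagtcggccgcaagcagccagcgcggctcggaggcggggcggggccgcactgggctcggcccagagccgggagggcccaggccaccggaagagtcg

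The Dvl2 and Dvl3 windows hold 1 half-site each and the Dvl1 window holds none of these letters. Such a match is common: 38.6% of 32851 RefSeq promoter windows of the same length hold at least 1, and so do 18 of the 41 windows (43.9%) found for 34 of the WNT genes. A pair of half-sites on the same strand, 3 bases apart, was found in 0 of the 41 windows and in 0.0396% of all windows. The core TCF/LEF letters CTTTGAA and their variant CTTTGAT, which can overlap a half-site by a few bases, were found before Dkk1, Wnt11 and Wnt5b, in 3 of 41 windows against 7.48% of all. These are letter matches in 1 window and no measure of binding.

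Of the relay proteins, Dvl3 was lower in peripubertal ovaries than in both other groups, and it was the only WNT gene called in more than 1 comparison. Dvl3 measured 11.30, 10.97, 10.76 and 10.88 in the control ovaries. It measured 10.66, 10.63, 10.90 and 10.68 in early-life ovaries and 9.66, 9.71, 9.97 and 9.65 in peripubertal ovaries. The highest peripubertal value lay under the lowest value of either other group, while control and early-life values overlapped. Dvl3, 1 of 3 scaffold proteins that pass the signal on from Frizzled, differed by -1.23 ± 0.14 (SE) between peripubertal and control ovaries, 2.35-fold lower (limma, adjusted p = 0.0161). Early-life ovaries were higher than peripubertal ovaries by 0.97 ± 0.14, or 1.96-fold (limma, adjusted p = 0.0237), and differed from control by -0.26 ± 0.14 (limma, adjusted p = 0.412). In whole tissue, fewer cells of a type and less RNA per cell cannot be told apart.

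The direction for Dvl3 was the same in all alternatives run, but its 2 calls were not. Both ended without E1, without E3, with no normalization between arrays and when only the compared groups were fitted. Among the 46 genes tested whose probes had a GC content of at least 70%, Dvl3 included, the median difference was 0.0960 for peripubertal minus control. The 1 gene called there was Dvl3 itself. For early life minus peripubertal the median was -0.17 with 3 called, Dvl3 among them. The part of GC content in the Dvl3 values was not tested. The 4 peripubertal columns of the deposited value table match no array, and what they measured is not known. Their Dvl3 mean was 3.21 on that table's log2 scale, against 2.54 in its other 8 columns, with overlap. Those columns were not used for the Dvl3 result.

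Dvl2 measured 11.51, 11.23, 11.37 and 11.18 in control, 11.29, 11.22, 11.42 and 11.08 in early-life and 10.81, 10.67, 11.17 and 10.90 in peripubertal ovaries. All peripubertal values lay under all control values, by a narrow margin, since P3 nearly reached C4. The difference of -0.43 ± 0.10 from control did not pass (limma, adjusted p = 0.170), nor did the early-life minus peripubertal difference of 0.36 ± 0.10 (limma, adjusted p = 0.0817). A second Dvl2 probe was above background in only 1 sample. Dvl1 was level: its group means were 11.45 ± 0.13 in control, 11.48 ± 0.09 in early-life and 11.45 ± 0.36 in peripubertal ovaries (SD, n = 4 each). Whether Dvl3 and Dvl1 differ in their response was not tested.

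**Figure D1:**
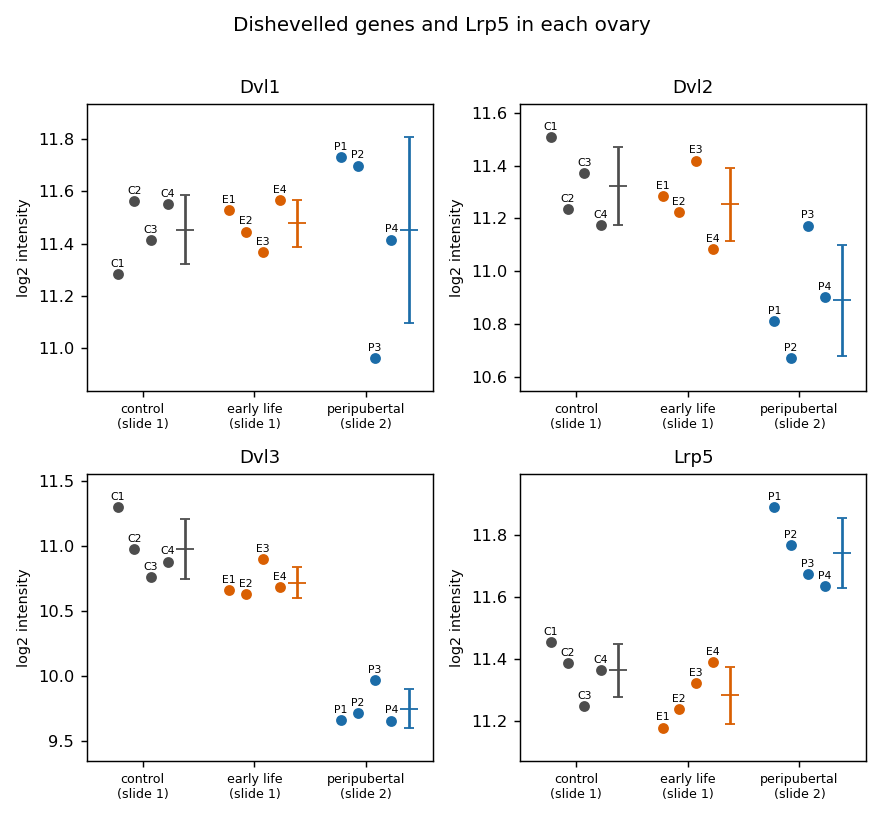
Log2 intensity of Dvl1, Dvl2, Dvl3 and Lrp5 in each ovary (points, labelled by sample), with the group mean and SD beside them; the y axes differ in range and the x axis gives the diet group and slide. The 4 peripubertal values of Dvl3 (9.65 to 9.97) sit under all others, those of Lrp5 (11.64 to 11.89) sit above all others, and the Dvl1 groups overlap.

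Ctnnb1, which encodes beta-catenin itself, was well above background in all 12 ovaries. Its spots were set aside by the scanner software as outliers in C3, C4 and all early-life channels, so it was not tested. With those spots kept, the 12 values ran from 13.51 (P3) to 14.19 (C2), and the 3 groups overlapped throughout. Axin1, a scaffold of the destruction complex, measured 11.20 to 11.32 in early-life and 10.54 to 11.01 in peripubertal ovaries, which did not overlap. Control values of 10.30, 11.27 and 11.10, with the spot of C2 set aside, overlapped with both groups. The early-life minus peripubertal difference of 0.48 ± 0.22 did not pass (limma, adjusted p = 0.217).

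Axin2 and Lef1 are both members of the pathway and known targets of it. Axin2 measured 8.23 to 8.40 in control and 8.18 to 8.52 in early-life ovaries. In peripubertal ovaries it measured 9.06, 8.83, 8.07 and 8.68, so that 3 of 4 animals lay above all others and P3 lay under them. The difference from control was 0.35 ± 0.20 (limma, adjusted p = 0.549). A second Axin2 probe was not above background in any sample. Lef1 differed by -0.31 ± 0.15 between early-life and control ovaries (limma, adjusted p = 0.384) and by -0.04 ± 0.15 between peripubertal and control ovaries. Early life minus peripubertal was -0.26 ± 0.15 (limma, adjusted p = 0.302), and values overlapped in each case. A second Lef1 probe gave -0.18 ± 0.12, 0.13 ± 0.12 and -0.32 ± 0.12 in that order. On it, early-life and peripubertal values did not overlap (limma, unadjusted p = 0.0231).

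All 12 receptors were tested, and Lrp5, the co-receptor that binds WNT with Frizzled, was the only one called. Lrp5 (probe on chromosome 19 of mm9, from 3584971 to 3585030) measured 11.45, 11.39, 11.25 and 11.36 in control ovaries. It measured 11.18, 11.24, 11.32 and 11.39 in early-life and 11.89, 11.77, 11.67 and 11.64 in peripubertal ovaries. Every peripubertal ovary was thus higher than all 8 others, while control and early-life values overlapped. Lrp5 was lower in early-life than in peripubertal ovaries by -0.46 ± 0.09, a 1.38-fold difference (limma, adjusted p = 0.0395). The peripubertal minus control difference of 0.38 ± 0.09, or 1.30-fold, did not pass (limma, adjusted p = 0.184). With the arrays exchanged, these 2 results trade places. The early-life call held in only 2 of 12 fits that each left out 1 animal, those without C4 or E2. Lrp6, the other co-receptor, differed by 0.03 ± 0.17 between early-life and control ovaries and by 0.05 ± 0.18 between peripubertal and control ovaries. Its spots in C1, C2 and P1 were set aside. A second Lrp6 probe with all 12 values gave -0.10 ± 0.16 and 0.12 ± 0.16, and -0.22 ± 0.16 for early life minus peripubertal.

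Fzd1, a receptor known to be induced in ovulatory follicles, had the widest group spread among receptors. It measured 12.92, 12.09, 11.28 and 11.30 in peripubertal ovaries and 10.84, 10.37, 10.50 and 10.75 in early-life ovaries, without overlap. Control values were 11.76 in C3 and 10.14 in C4, and the spots of C1 and C2 were set aside. The early-life minus peripubertal difference was -1.28 ± 0.47, or 2.43-fold (limma, adjusted p = 0.160). Fzd4, a receptor that female fertility depends on through the corpus luteum, measured 9.30 to 10.05 in control, 8.84 to 9.77 in early-life and 9.57 to 9.78 in peripubertal ovaries. Its groups overlapped, and it differed by -0.42 ± 0.22 between early-life and control ovaries (limma, adjusted p = 0.417).

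Fzd5 was lower in each early-life ovary (7.11 to 7.27) than in any peripubertal ovary (7.39 to 7.66). The difference of -0.33 ± 0.10 did not pass (limma, adjusted p = 0.102). A second Fzd5 probe gave 0.06 ± 0.08, but it was above background in only 9 of 12 ovaries, 2 of them peripubertal. Fzd2, Fzd7 and Fzd9 differed by -0.35 ± 0.15, -0.40 ± 0.16 and -0.30 ± 0.12 between early-life and control ovaries, with overlap and without passing (limma, adjusted p = 0.344, 0.321 and 0.324). Fzd9 was above background in 9 of 12 ovaries, with only 2 of them early-life. Both Fzd2 probes (-0.35 and -0.26) and both Fzd7 probes (-0.40 and -0.42) gave the same sign between early-life and control ovaries. The second Fzd2 probe was above background in only 6 of 12 ovaries, among them 3 control and 2 early-life. Against peripubertal ovaries, early-life Fzd7 differed by -0.05 with 1 probe and -0.41 with the other. Early-life Fzd9 differed from peripubertal by -0.42 ± 0.12 with overlap (limma, adjusted p = 0.0828), and Fzd2 by -0.32 ± 0.15 without overlap (limma, adjusted p = 0.222). Fzd3, Fzd6, Fzd8 and Fzd10 had an adjusted p of 0.291 or more (limma) in all 3 comparisons.

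Of the 20 ligands 11 could be tested, and none was called in any comparison. Wnt1, Wnt4, Wnt5a, Wnt5b, Wnt6, Wnt9a and Wnt10a had lower means in early-life ovaries than in both other groups, Wnt5b and Wnt9a by little. Rspo1, Wnt10b, Wnt11 and Wnt16 did not. Wnt1, the founding member of the family, measured 10.12, 10.11, 10.03 and 9.99 in control, 9.81, 9.88, 9.82 and 9.80 in early-life and 10.19, 10.18, 10.07 and 10.07 in peripubertal ovaries. All 4 early-life values lay under all others within a narrow span. Wnt1 differed by -0.24 ± 0.07 from control (limma, adjusted p = 0.239) and by -0.30 ± 0.07 from peripubertal ovaries (limma, adjusted p = 0.0527). A second Wnt1 probe was not above background in any sample.

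Wnt10a measured 8.62, 8.44, 8.92 and 8.56 in control, 7.49, 6.96, 7.88 and 8.17 in early-life and 10.54, 9.05, 8.59 and 9.20 in peripubertal ovaries. The early-life values lay under all others, and P1 lay far above the rest. Wnt10a, a ligand of the beta-catenin branch, differed by -1.01 ± 0.44 between early-life and control ovaries, or 2.02-fold (limma, adjusted p = 0.351). It differed by -1.73 ± 0.44, or 3.31-fold, between early-life and peripubertal ovaries (limma, adjusted p = 0.0659).

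Wnt5a, a ligand that acts mostly without beta-catenin, measured 11.97, 11.85 and 11.40 in control and 11.36, 10.79 and 11.06 in early-life ovaries, with the spots of C2 and E4 set aside. Those groups did not overlap, but E1 and C4 nearly met. Peripubertal values of 12.40, 11.63, 12.01 and 10.95 overlapped with both. Wnt5a differed by -0.69 ± 0.21 between early-life and control ovaries (limma, adjusted p = 0.259) and by -0.81 ± 0.21 between early-life and peripubertal ovaries (limma, adjusted p = 0.0780). Wnt6 measured 10.003 to 10.49 in early-life, 10.45 to 11.51 in control and 10.16 to 11.60 in peripubertal ovaries, with a difference of -0.81 ± 0.34 from control (limma, adjusted p = 0.339).

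**Figure D2:**
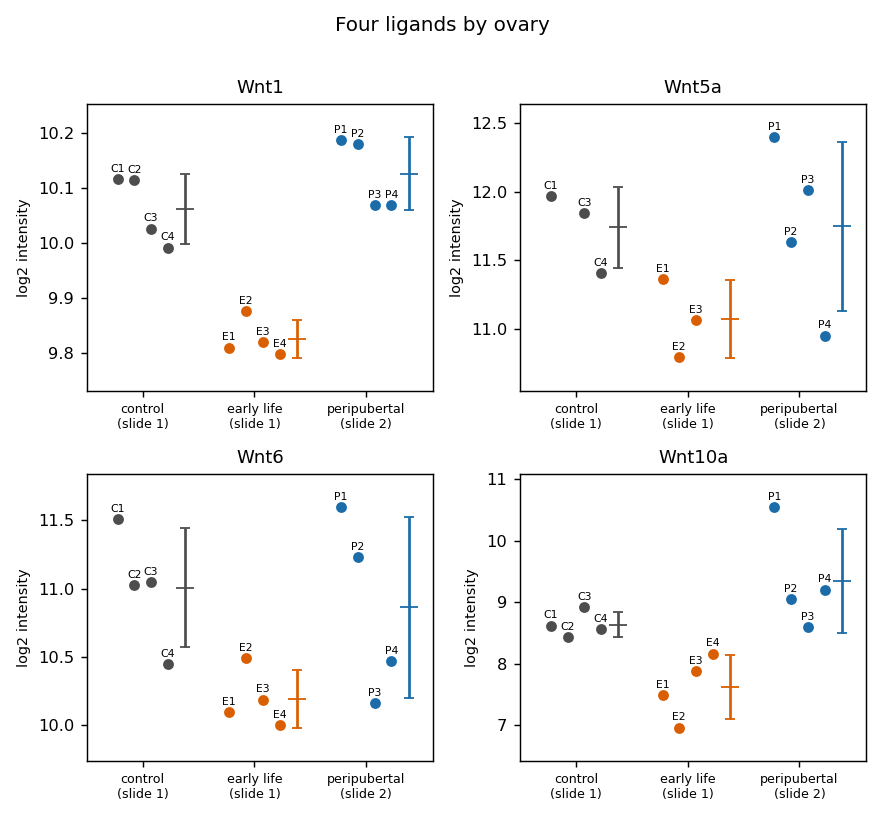
Log2 intensity of Wnt1, Wnt5a, Wnt6 and Wnt10a in each ovary (points), with group mean and SD beside them. Early-life Wnt1 (9.80 to 9.88) and Wnt10a (6.96 to 8.17) lie under all other samples, while the Wnt5a and Wnt6 groups overlap in at least 1 comparison.

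Wnt4, the ligand of early ovarian fate, measured 13.53, 14.20, 13.55 and 13.29 in control and 13.79, 13.12, 13.62 and 13.59 in peripubertal ovaries. Of the early-life ovaries only E2 (13.39) and E4 (12.76) gave a value, since the spots of E1 and E3 were set aside. The early-life minus control difference was -0.53 ± 0.38 (limma, adjusted p = 0.536). A second Wnt4 probe has all 12 values: 11.54, 11.96, 11.76 and 11.24 in control, 10.55, 11.33, 10.52 and 10.66 in early-life and 12.56, 11.44, 11.94 and 11.72 in peripubertal ovaries. On it, early-life ovaries differed by -0.86 ± 0.34 from control (limma, unadjusted p = 0.0302) and by -1.15 ± 0.34 from peripubertal ovaries (limma, unadjusted p = 0.00709), and the early-life and peripubertal values did not overlap. E1, E3 and E4 were the low samples.

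Rspo1, the R-spondin of ovarian development, measured 10.75, 10.56, 11.003 and 11.38 in control, 11.95, 10.66, 11.75 and 11.77 in early-life and 11.10, 11.05, 11.04 and 11.93 in peripubertal ovaries. E1, E3, E4 and P4 were thus the high samples, and the groups overlapped. The early-life minus control difference was 0.61 ± 0.39 (limma, adjusted p = 0.490). Wnt10b was lower in control ovaries (7.41 to 9.47) than in peripubertal ovaries (9.28 to 10.11) by 1.12 ± 0.49, with overlap (limma, adjusted p = 0.424).

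Wnt11, a ligand of the branch without beta-catenin, had the largest positive difference of any WNT gene tested in the comparisons of early-life ovaries. It measured 9.38, 7.98, 8.76 and 9.37 in control, 11.18, 8.58, 9.92 and 11.09 in early-life and 8.64, 8.31, 8.23 and 7.73 in peripubertal ovaries. E1, E3 and E4 stood above all others, and E2 lay within the control range. The difference was 1.32 ± 0.68 from control (limma, adjusted p = 0.406) and 1.97 ± 0.68 from peripubertal ovaries (limma, adjusted p = 0.128).

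The same 3 samples were high for other WNT genes. Wnt7a, which patterns the Müllerian duct from which oviduct and uterus form, was well above background only in E1 (7.91), E3 (7.76) and E4 (8.95). Its other 9 values, 6.25 to 6.95, were not well above background, so it was not tested. Wnt7b was above background in the same 3 ovaries only, at 7.32, 7.33 and 7.77, beside 6.69 to 7.05 elsewhere. Wnt16 measured 7.97, 6.81, 7.76 and 8.65 in early-life ovaries, 6.66 to 7.63 in control and 6.93 to 7.12 in peripubertal ovaries. It was above background in only 6 of 12 ovaries (2 control, 3 early-life and 1 peripubertal). Early-life ovaries differed by 0.62 ± 0.44 from control (limma, adjusted p = 0.527) and by 0.77 ± 0.44 from peripubertal ovaries (limma, adjusted p = 0.312). A second Wnt16 probe, above background in 5 ovaries, gave 1.02 ± 0.62 and 1.43 ± 0.62 in that order (limma, unadjusted p = 0.130 and 0.0427).

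The oviduct epithelium list was high in the same samples. The mean deviation of its 10 measured genes from their average over samples was 2.45 in E1, 1.57 in E3 and 2.83 in E4, but -0.53 in E2. It was 0.72, -1.12, -1.25 and 0.99 in C1 to C4 and -1.79 to -0.78 in peripubertal ovaries. Of its genes 1 was called in early life versus peripubertal and 0 were called in the other comparisons, while Cldn4, Muc1 and Cdhr4 were not tested. The list of ovarian surface epithelium was also high in E1 (1.00), E3 (0.55) and E4 (1.04), against -0.64 in E2. The part of these cells in the values of Wnt7a, Wnt7b, Wnt11, Wnt16, Rspo1 and Sfrp5 was not tested. The adipocyte list was at 2.79 in E1, 0.40 in E2, 0.21 in E3 and 0.74 in E4, above its control range of -2.27 to -0.19. The macrophage list ran from -0.84 to -0.41 in early-life and from 0.21 to 0.81 in peripubertal ovaries, and 4 of its 7 genes were called between them.

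**Figure D3:**
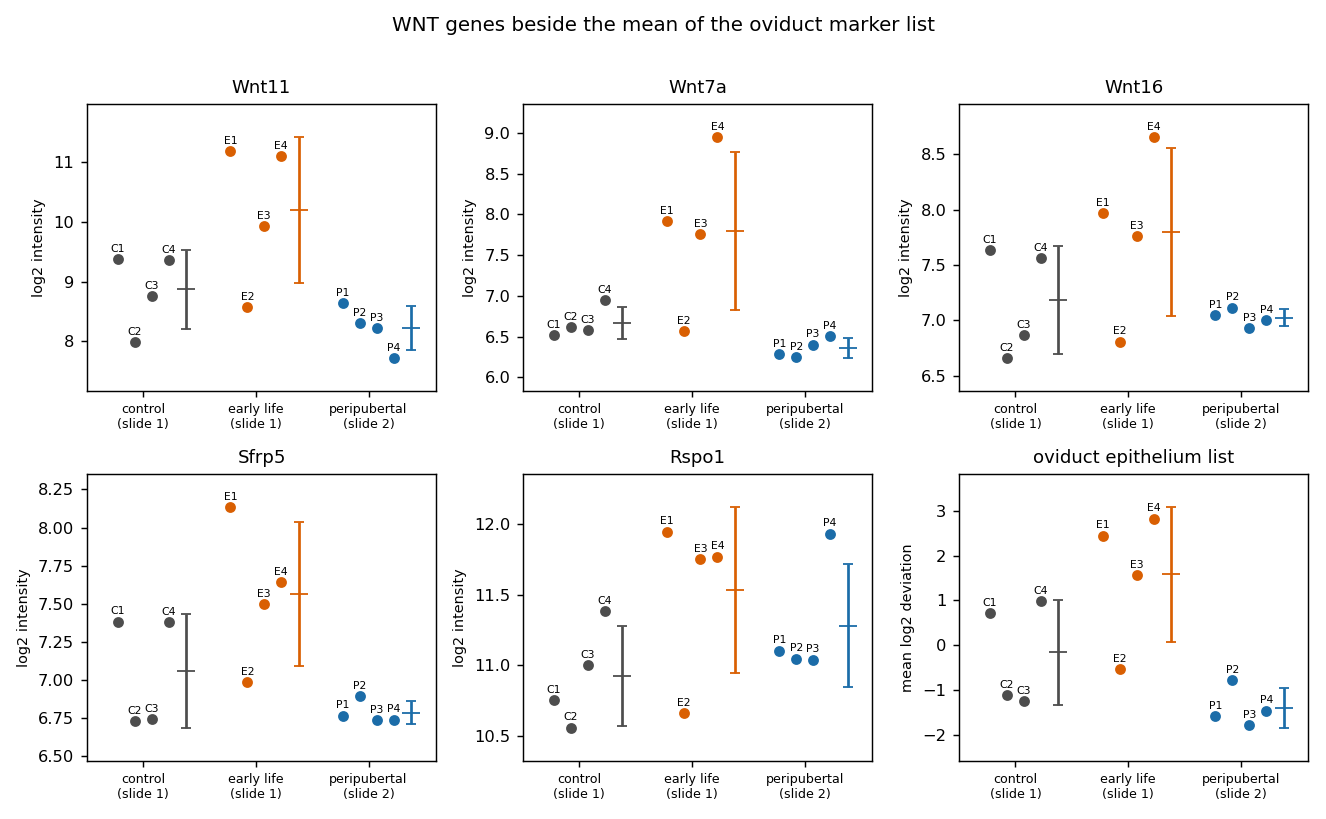
Log2 intensity of Wnt11, Wnt7a, Wnt16, Sfrp5 and Rspo1 in each ovary, and the mean log2 deviation of the oviduct epithelium list in the last panel; points are samples, with group mean and SD beside them. E1, E3 and E4 are the high early-life samples in each panel, and E2 lies near the control samples.

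None of the 7 secreted antagonists tested was called. Sfrp4, known from granulosa and luteal cells, measured 14.18, 16.33, 15.94 and 17.08 in control, 16.02, 16.49, 16.28 and 16.28 in early-life and 15.92 and 16.07 in P1 and P2, with the spots of P3 and P4 set aside. The control group held both the lowest and the highest value, and the early-life minus control difference was 0.38 ± 0.53 (limma, adjusted p = 0.751). Sfrp2 varied most of all members tested, with an SD of 1.44 over 12 samples. Its values were 10.83, 10.36, 10.70 and 8.39 in control, 10.31, 7.60, 10.67 and 11.73 in early-life and 11.59, 12.11, 8.22 and 10.29 in peripubertal ovaries. Each group held 1 low ovary (C4, E2 and P3), and its differences carried a standard error of 1.20.

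Sfrp5, another trap of WNT ligands, was above background in all 4 early-life ovaries (8.13, 6.99, 7.499 and 7.64), in C1 and C4 (7.38 each) and in none of the peripubertal ovaries (6.74 to 6.89). Early-life and peripubertal values did not overlap, and early-life ovaries were at least 1.54-fold higher, computed against the background level, without passing (limma, adjusted p = 0.168). Dkk2, a blocker of the LRP receptors, measured 6.86 to 7.02 in early-life, 7.07 to 7.25 in control and 7.12 to 7.70 in peripubertal ovaries. Early-life values lay under all others by a small gap, with differences of -0.25 ± 0.18 from control (limma, adjusted p = 0.534) and -0.49 ± 0.18 from peripubertal ovaries (limma, adjusted p = 0.151).

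Frzb, an SFRP-type trap, measured 8.26 to 8.36 in control and 7.31, 8.21, 8.06 and 7.93 in peripubertal ovaries. The groups did not overlap, yet P2 nearly reached the control range, and the difference was -0.43 ± 0.21 (limma, adjusted p = 0.488). Sfrp1 was lower in early-life (8.75 to 9.58) than in peripubertal ovaries (9.23 to 10.25) by -0.72 ± 0.24, with overlap (limma, adjusted p = 0.114). Dkk3 measured 13.07, 11.47, 12.63 and 13.43 in early-life ovaries, where E2 was again the low sample, and 11.22 to 12.71 in peripubertal ovaries.

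In early-life versus control ovaries 0 of 36 members were called, against 0.0377% of all genes tested. At an unadjusted p under 0.05 there were 7 (Fzd2, Fzd7, Fzd9, Wnt1, Wnt10a, Wnt5a and Wnt6, all lower in the samples labelled early life), against 13.9% of all genes. The groups did not overlap in 4 (Dkk2, Wnt1, Wnt10a and Wnt5a), against 13.6%. The median difference of the members was -0.07, beside -0.02 for all genes, and 15 of 36 lay above 0. Among the members, the share at an unadjusted p under 0.05 was above that of the array and the share without overlap was under it.

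In peripubertal versus control ovaries 1 of 36 members was called (Dvl3, lower), against 0.286% of all genes tested. At an unadjusted p under 0.05 there were 4 (Dvl2, Dvl3, Lrp5 and Wnt10b) against 11.3%. The groups did not overlap in 4 (Dvl2, Dvl3, Frzb and Lrp5) against 11.3%. The median was 0.0044, beside 0.0088 for all genes. Apart from the Dvl3 call, the shares were close to those of the array.

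In early-life versus peripubertal ovaries 2 of 36 members were called (Dvl3 higher, Lrp5 lower), against 2.65% of all genes tested. At an unadjusted p under 0.05 there were 13, against 23.9%. The groups did not overlap in 10, against 20.7%, and the median was -0.12 beside -0.03 for all genes. Both counts were above the share of the array. The number called was 0 without E1 or E3, 7 without E2, and 1 without C1, C2, C3, E4, P1 or P2. Over all genes the 491 calls became 2 without E1, 3 without E3 and 1567 without E2, so the count moved across the whole array. By role the medians were -0.13 for ligands, -0.19 for receptors, 0.27 for secreted antagonists and 0.19 for relay proteins. Each group enters 2 of the 3 comparisons, so these counts are not independent.

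**Figure D4:**
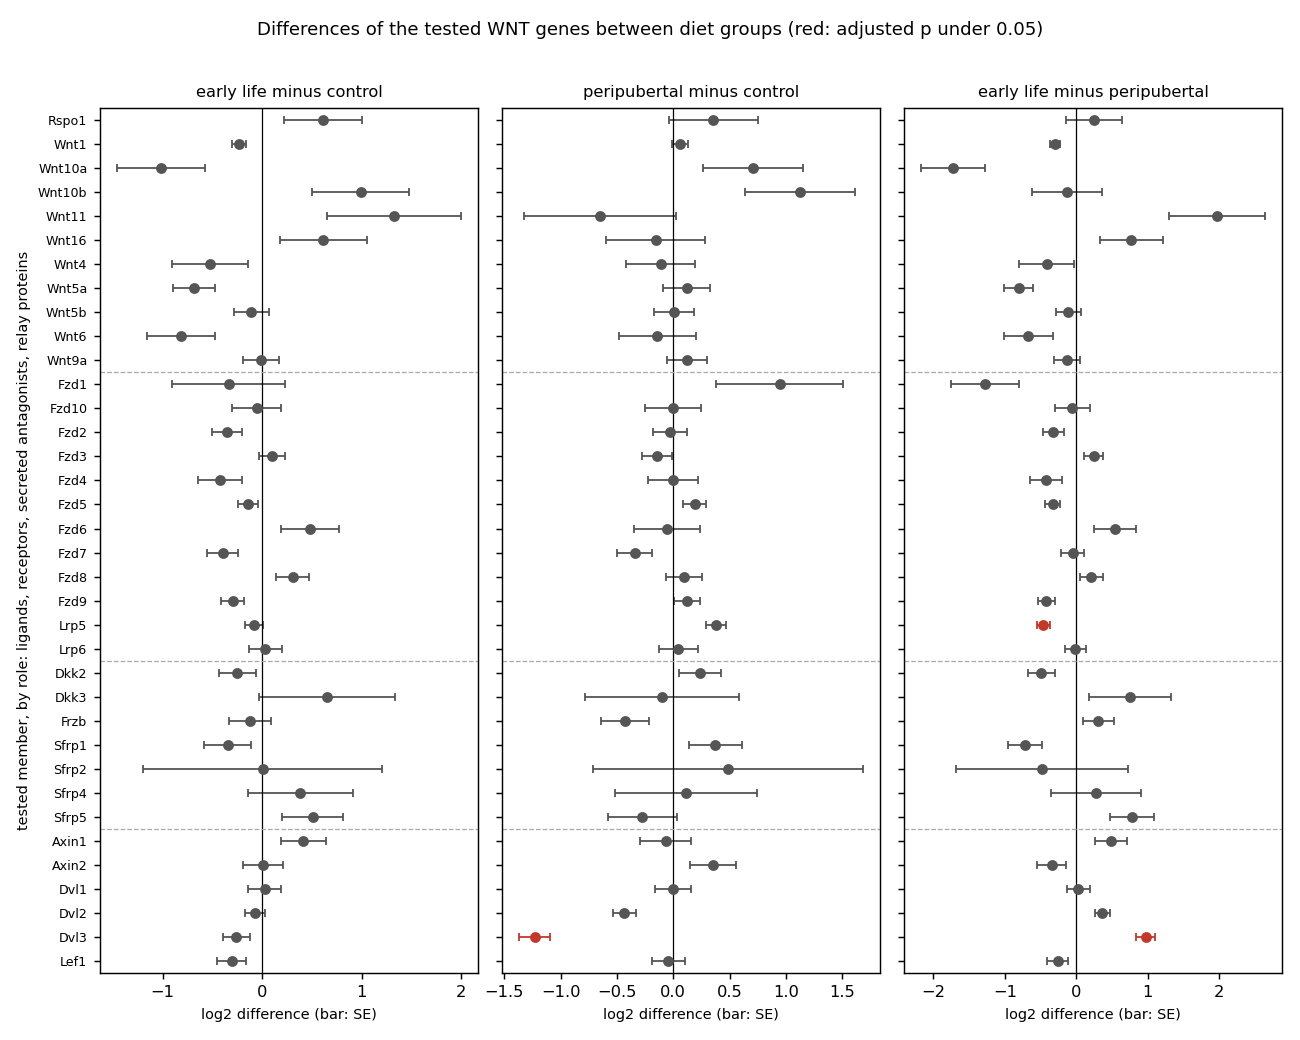
Log2 difference of each of the 36 tested WNT genes in the 3 comparisons (x axis; bars are standard errors; the x axes differ in range), ordered by role from ligands at the top to relay proteins at the bottom. Red points have an adjusted p under 0.05: Dvl3 in both peripubertal comparisons and Lrp5 in early life minus peripubertal.

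**Figure D5:**
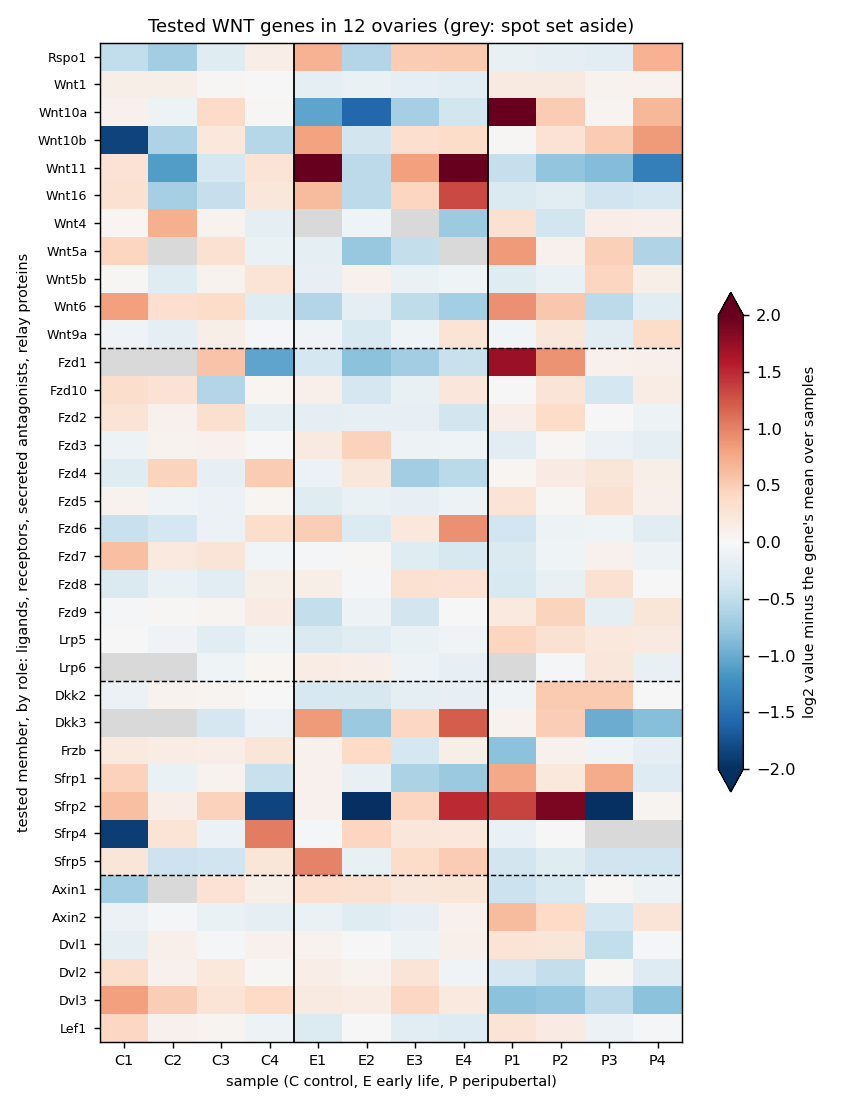
Log2 value of each tested WNT gene in each of the 12 ovaries, minus the mean of that gene over the samples with a value; grey cells are spots set aside and the colour scale ends at -2 and 2. The Dvl3 row is low in P1 to P4, and the Wnt11 row is high in E1, E3 and E4.

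The 12 members not above background in at least 4 samples were 9 ligands and 3 secreted antagonists. Dkk1, Dkk4, Wif1, Wnt2, Wnt3, Wnt3a, Wnt8a and Wnt8b were not well above background in any of the 12 ovaries. Wnt2b was above it in 3 ovaries and Wnt9b in 2. Of the tested members, 31 were above background in all 12 ovaries.

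Beyond these members, 84 other genes of the pathway were listed, among them R-spondin receptors, the destruction complex, TCF partners, planar polarity genes and targets. Of 75 tested, 0 were called in any of the 3 comparisons (limma). Over all genes tested, 0.0377%, 0.286% and 2.65% were called in early life versus control, peripubertal versus control and early life versus peripubertal. At an unadjusted p under 0.05 (limma) there were 10, 6 and 19 in the same order, against 13.9%, 11.3% and 23.9% of all genes. The groups did not overlap in 6, 10 and 13 of the 75, against 13.6%, 11.3% and 20.7% of all genes. The 20 listed genes of the destruction complex and relay had medians of 0.02, 0.14 and -0.11 in that order, and the 10 tested targets had 0.25, 0.16 and -0.11. Ctnnbip1, which keeps beta-catenin from its TCF partners, differed by -0.41 ± 0.10 between peripubertal and control ovaries without overlap (limma, adjusted p = 0.175). Celsr2, a planar polarity cadherin, differed by 1.23 ± 0.34 between early-life and peripubertal ovaries without overlap (limma, adjusted p = 0.0798). E1, E3 and E4 were again the high samples, while E2 (8.43) nearly met P4 (8.37) and lay within the control range.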

How the data were processed

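The deposited scanner files of 6 arrays, read with Agilent Feature Extraction 11.0.1.1 per the file headers, give each spot's mean signal and local background as intensity, without normalization, and a processed signal. The value table that the authors deposited is in log2 units, with each column's median at 0; how the authors made it is not given in the sources used here. Its 4 peripubertal columns matched no array, so it was used only as an alternative for early life versus control and to test sample names. Probe positions are mm9.

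Background was corrected by normexp with an offset of 50 (limma 3.58.1, R 4.3.3), then loess was applied inside each array and Aquantile across arrays, and each channel entered as its own log2 value. Outlier spots marked by the scanner software were dropped (3.16% of values). A probe was kept if 4 or more of the 12 samples were well above background and each group had at least 2 values (23791 probes), and the brightest kept probe stood for each gene. One limma model held group and dye, with the array as random block (correlation 0.288), and p-values were adjusted by Benjamini-Hochberg. The procedure was tested on simulated data. Precision is limited by the number of arrays.

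The WNT genes, marker lists, pathway lists and alternatives were chosen with earlier results of these data known. Values are given for members that passed, for up to 8 per comparison whose groups did not overlap, for the 3 most variable, and for Wnt4, Rspo1, Ctnnb1, Fzd1, Fzd4, Sfrp4, Axin2, Lef1, Wnt5a and Wnt7a. Other genes with values of their own were chosen after their values were seen. Alternatives changed background, normalization, filter, probe choice, model, sample names and samples. Replicate numbers did not pair the animals: correlations between same-numbered animals ran from -0.35 to 0.52.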

Additional observations from a re-analysis of the deposited data

Results flagged for a closer look

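Among 99 groups of 4 ovaries examined for 1 sample far from the other 3, 2 stood out, both for Rspo1; chance alone gives about 1 in 20 such groups. In early-life ovaries E2 measured 10.66 beside 11.75 to 11.95 in the others. In peripubertal ovaries P4 measured 11.93 beside 11.04 to 11.10 in the others. In the 4 peripubertal columns of the deposited value table, which match no scanner channel, 3 WNT genes lay above all 8 matched columns by more than 2 log2 units on average. The differences of means were 2.74 for Lrp5, 4.86 for Sfrp5 and 3.30 for Wnt10a. In the same columns 10 WNT genes lay lower by more than 2 log2 units on average, 8 of them under all matched values. They include Sfrp4 (-7.93), Wnt6 (-5.02), Rspo1 (-4.48, from 2 columns), Wnt4 (-4.05) and Wnt5a (-3.23), none of which was called in the scanner values. Dvl3, lower in the peripubertal scanner channels, was 0.67 higher in these columns, with overlap. What these columns measured is not known, so they were used for none of the peripubertal results.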

How the results depend on the processing

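In early-life versus control ovaries 0 WNT genes were called in all alternatives run (limma). In peripubertal versus control ovaries the count of 1 became 0 with no between-array normalization, 0 with only the compared groups fitted and 2 with control and early-life arrays exchanged, while the 53 calls over all genes became 0, 0 and 491. In early-life versus peripubertal ovaries the count of 2 became 0, 0 and 1 under these 3 settings, 9 with no array block, 4 with no dye term and 4 with the intraspot model. The 491 calls over all genes became 1, 11, 53, 2096, 738 and 1224 in the same order. Leaving out 1 animal at a time gave 0 in early-life versus control, 0 to 1 in peripubertal versus control (0 without E1 or E3) and 0 to 7 in early-life versus peripubertal ovaries (0 without E1 or E3, 7 without E2). The cause was not tested.

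The median difference of the members in early-life versus control ovaries was -0.07. It became 0.10 with no between-array normalization (0.11 for all genes) and 0.0070 with no filter on dim probes. Exchanging the arrays gave 0.0749, a change of sign by naming alone. The deposited value table, which names these arrays the other way round, gave 0.13 (0.0877 for all genes). Under the scanner names the sign of that value would be negative too. In peripubertal versus control ovaries the median of 0.0044 became 0.0724 with the processed signal, 0.0558 with no between-array normalization, 0.0551 with the mean of a gene's probes and 0.12 with the arrays exchanged. In early-life versus peripubertal ovaries the median of -0.12 became -0.0156 with no between-array normalization, 0.0062 with no filter and -0.0044 with the arrays exchanged. Without 1 animal these medians ran from -0.12 to -0.05, from 0.0044 to 0.0883 and from -0.198 to -0.0488.

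The Dvl3 difference of peripubertal from control ovaries stayed between -1.41 and -0.97, and that of early-life from peripubertal between 0.91 and 1.23. Its adjusted p was 0.0576 and 0.0530 for peripubertal versus control without E1 and without E3, 0.587 with no between-array normalization and 0.175 with only the compared groups fitted. For early-life versus peripubertal these were 0.0791, 0.0874, 0.580 and 0.0651. Lrp5 differed by -0.57 to -0.38 between early-life and peripubertal ovaries, and its adjusted p without 1 animal was 0.0346 to 0.125. With the replicate block in place of dye, the counts of called members were 0, 1 and 2 as before, no call changed, and 3 of 12 animals correlated best with their own number. The intraspot model was run only with outlier spots kept, an alternative added after seeing the data, as was a minimum of 3 values in each group. The value table could not be used for peripubertal comparisons.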
